A study of Mus musculus with 22 samples.

Results

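Spermatids are the haploid cells that follow meiosis, and this comparison sets sorted spermatids of euploid male mice against liver of euploid males, with attention to gene families that hold a germ cell member beside widely expressed or liver members. It uses 6 of the 22 microarrays of the series, 3 of euploid spermatids and 3 of euploid liver. A gene entered when its mean was at least 4 in either group on the log2 intensity scale of the deposited table, which held for 10415 of 15780 named genes. The isozyme and paralogue families were 104 lists with 291 genes, each gene put down as a germ cell, a widely expressed or a liver member from general knowledge, and 219 of the 291 passed the minimum. Beside the comparison stand 3 arrays of trisomic spermatids, 3 of trisomic liver, 3 of euploid pre-mid-pachytene spermatocytes and 2 of euploid mid-late-pachytene spermatocytes. Trisomic males were Ts43H, a model known to be trisomic for the part of chromosome 17 next to its centromere, and the euploid males were their siblings, labelled t121/D17. All mice were males, aged 2 months, and 20 to 30 ng of total RNA was labelled per array. The germ cells were sorted by flow cytometry from a suspension of testicular tubules, whereas liver was taken as tissue with all its cell types. The labels do not say whether arrays of a group come from separate animals, so the p-values may measure only technical spread.

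Many enzymes and structural proteins of the body have a second gene that is used in male germ cells. Some of these arose as intronless copies, inserted on an autosome, of a parent gene on the X chromosome, which is silenced during male meiosis and stays low in many spermatids. Others encode proteins fitted to the sperm tail, the acrosome or the compacted nucleus, and glycolysis of the sperm tail is known for its own set of isozymes. Liver has isozymes of its own for glucose release, the urea cycle and uptake of bile salts and fatty acids.

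The marker genes fitted the labels. The 7 hepatocyte markers in the table had array medians of 2.39 to 2.47 in spermatids and 16.27 to 16.34 in liver, and 5 of the 7 lay below 3, called the background range here, in spermatids. Apoh was an exception at 11.16 in spermatids, against 15.67 in liver. The 8 spermatid markers had medians of 14.41 to 14.66 in spermatids and 2.41 to 2.71 in liver, where 6 lay below 3, with Prm1 at 4.27 and Tnp1 at 5.42. Markers of pachytene spermatocytes were high in spermatids as well, at 12.9 to 13.2, against 3.24 to 4.88 in liver. Medians of Sertoli cell markers were 3.16 to 3.63 in spermatids and 2.56 to 2.90 in liver, and those of Leydig cell markers were 2.29 to 3.17 and 2.52 to 2.60 in the same order. Macrophage markers had medians of 2.08 to 2.12 in spermatids and 6.17 to 7.16 in liver. Those of endothelial markers were 2.23 to 2.45 and 8.06 to 8.14 in the same order. Single markers lay well above these medians in spermatids: Clu (9.32) and Cldn11 (4.29) of Sertoli cells, Cyp17a1 (5.08) of Leydig cells and Stab2 (7.94) of endothelium. Below 3 in spermatids lay 2 of the 6 Sertoli, 3 of the 4 Leydig and 3 of the 5 endothelial markers. Whether somatic cells were carried into the sort was not tested. Not every marker was raised in liver: Cd68 (2.46), Marco (2.04), Pecam1 (1.88) and Cdh5 (2.23) lay below 3 there. Adgre1 had 6.96 in liver and 7.19 in spermatids. Liver was taken with all its cell types, so its values can hold more than hepatocytes. Whether a difference reflects fewer cells of a type or less RNA per cell cannot be told apart. Replicate arrays correlated across genes with r of 0.993 to 0.994 in spermatids and 0.99 to 0.991 in liver, where genes are not independent replicates.

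Nearly every expressed gene differed between the tissues. With limma, 4921 of 10415 genes (47.2%) rose in spermatids and 4585 (44%) fell, 9506 (91.3%) in all, and 3609 (34.7%) rose and 3310 (31.8%) fell by at least 2 on the log2 scale. The median change of all genes was 0.19 with quartiles of -2.95 and 3.50. A mean of at least 4 in spermatids went with a mean below 3 in liver for 1558 genes, and the reverse held for 1439. For such genes the size of the change depends on the floor of the array, and a call in their direction follows largely from the filter.

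The 10 largest increases were led by a member of an isozyme family. Ldhal6b, a lactate dehydrogenase-like gene, had 15.87, 16.01 and 15.97 in spermatids, against 2.54, 2.23 and 2.25 in liver, a change of 13.61 (SE 0.12, adjusted p = 4.96e-22). Gk2, a germ cell glycerol kinase, had 16.10, 16.04 and 15.96 in spermatids and 2.54, 2.75 and 2.52 in liver. The other 8 were Spata4 (13.53), Eid3 (13.40), Tcfl5 (13.38), Crisp2 (13.36), Pdcl2 (13.33), Clec2m (13.32), Mael (13.28) and Adam5 (13.19). Crisp2 is a secreted protein of the acrosome and sperm tail, and Mael acts in the piRNA pathway that silences transposons in germ cells. The 10 largest decreases were of genes for secreted plasma proteins and liver enzymes. Serpina1c, an alpha-1-antitrypsin gene, had 1.47, 1.47 and 1.49 in spermatids, against 15.92, 15.84 and 15.75 in liver, a change of -14.36 (SE 0.04, adjusted p = 2.09e-28). It was followed by Serpina1b (-14.09), the drug-metabolizing Cyp3a11 (-14.07), the thyroid hormone carrier gene Ttr (-13.97), Apoa1 of high-density lipoprotein (-13.97), the iron carrier gene Trf (-13.93), the retinol carrier gene Rbp4 (-13.88), the haem carrier gene Hpx (-13.86), the fibrinogen gene Fga (-13.85) and Rdh7 (-13.76). Serpina1b and Serpina1c are close copies, and whether their probes read each other's transcripts was not tested.

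Within the families, 124 of the 219 tested members rose, 83 fell and 12 did not pass, against 47.2% of all genes that rose and 44% that fell. On 208 of the 219, all spermatid arrays lay on the same side of all liver arrays, where over all genes 47.8% lay wholly above and 43.9% wholly below. Of 75 families with at least 2 tested members, 53 held both a member that rose and a member that fell, and in 43 both moved by at least 2. Over all genes 34.7% rose and 31.8% fell by that much, and nothing particular to the families is read from these counts. The minimum was reached only through spermatids by 88 of the 219 members and only through liver by 27, which fixed their direction. The counts per class below stand against the same shares over all genes. The germ cell members were 99, of which 94 rose, 2 fell and 3 did not pass. Their median change was 9.99. Of these, 77 passed the minimum only through spermatids, so that their direction was fixed by the filter. Among the 22 at 4 or more in both tissues, 17 rose and 2 fell, while 44.2% of the 5995 genes at that level rose and 41.4% fell. The widely expressed members were 106, of which 30 rose and 68 fell, with a median of -1.70. At 4 or more in both tissues there were 77 of them, and 20 rose (26%) while 50 fell (64.9%). Of 14 liver members 13 fell, with a median of -9.85, and Fbp1 did not pass. Of the 14, 9 reached the minimum only through liver.

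**Figure D1:**
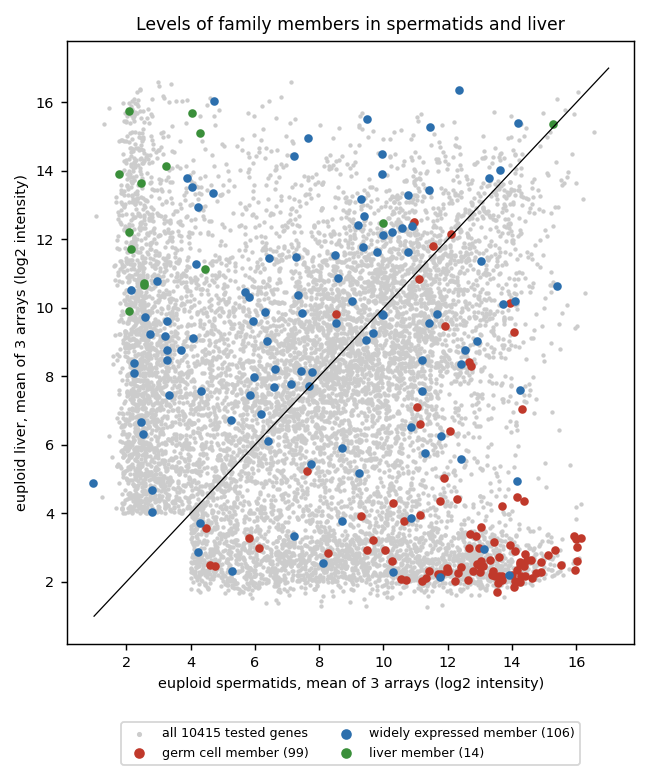
Mean log2 intensity of each tested gene over 3 euploid spermatid arrays (horizontal axis) and 3 euploid liver arrays (vertical axis). Grey points are all 10415 genes, coloured points are the 219 family members by kind, and the line marks equal values. Most germ cell members lie at the lower right with liver values below 4, and the liver members except Fbp1 and Aqp9 lie at the upper left.

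X-linked members were mostly low in spermatids while their autosomal counterparts were high. Of 15 widely expressed members on the X chromosome, 13 fell and 1 rose in spermatids, and their median change was -4.48. Among them Pdha1, Acsl4, Rbmx, Smc1a and Stag2 reached the minimum only through liver, so that their direction was fixed by the filter. Over all 286 tested X genes, 166 fell (58%) and 102 rose (35.7%). Pdha2 encodes the E1 alpha subunit of pyruvate dehydrogenase, the entry of pyruvate into the citrate cycle, and is an autosomal copy of the X-linked Pdha1. Pdha2 had 14.20, 14.27 and 14.34 in spermatids, against 2.10, 2.16 and 2.26 in liver, and rose by 12.10 (SE 0.23, adjusted p = 1.88e-17). Pdha1 had 2.14, 2.14 and 2.13 in spermatids, against 10.44, 10.36 and 10.73 in liver, a change of -8.37 (SE 0.22, adjusted p = 2.06e-15). Each gene was thus in the background range in the tissue where the other was high.

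The DEAD-box RNA helicase pair gave the same picture. D1Pas1, the autosomal copy on chromosome 1, had 12.21, 12.34 and 12.42 in spermatids, against 2.39, 2.19 and 2.20 in liver (change 10.07, SE 0.20, adjusted p = 4.1e-17). Its X-linked parent Ddx3x, which acts in translation initiation, had 4.74, 3.85 and 5.49 in spermatids, against 13.46, 13.31 and 13.26 in liver (change -8.65, SE 0.46, adjusted p = 2.09e-11). Ddx3x stayed above the background range on every spermatid array. Mcts2, an imprinted autosomal copy of a translation re-initiation factor gene, differed from these in that liver also had a signal. It had 11.13, 11.08 and 11.23 in spermatids, against 6.26, 6.82 and 6.77 in liver, a change of 4.53 (SE 0.21, adjusted p = 2.62e-12). Its X-linked parent Mcts1 had 4.21, 4.13 and 4.17 in spermatids, against 11.40, 11.42 and 11.04 in liver, a change of -7.12 (SE 0.23, adjusted p = 2.39e-14).

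The 250 bases upstream of the annotated start of these 6 genes are shown because the members of each pair moved in opposite directions. They are RefSeq sequences of GRCm38.p6, read 5' to 3' on the gene's strand, with each CG dinucleotide in capitals. They lie at chr3:141212356-141212605 on the minus strand for Pdha2, chrX:160138431-160138680 minus for Pdha1, chr1:186967166-186967415 plus for D1Pas1, chrX:13280772-13281021 plus for Ddx3x, chr2:152686898-152687147 plus for Mcts2 and chrX:38600221-38600470 plus for Mcts1.
Pdha2: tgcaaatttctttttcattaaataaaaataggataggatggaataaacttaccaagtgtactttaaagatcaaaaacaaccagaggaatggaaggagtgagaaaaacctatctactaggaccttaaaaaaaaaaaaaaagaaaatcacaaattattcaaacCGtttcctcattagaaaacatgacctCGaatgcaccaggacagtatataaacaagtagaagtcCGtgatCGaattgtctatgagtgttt
Pdha1: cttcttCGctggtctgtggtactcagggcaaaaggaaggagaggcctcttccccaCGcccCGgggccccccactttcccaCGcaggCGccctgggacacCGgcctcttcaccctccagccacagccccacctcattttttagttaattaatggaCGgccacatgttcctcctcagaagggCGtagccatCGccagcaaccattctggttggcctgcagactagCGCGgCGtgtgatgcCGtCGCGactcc
D1Pas1: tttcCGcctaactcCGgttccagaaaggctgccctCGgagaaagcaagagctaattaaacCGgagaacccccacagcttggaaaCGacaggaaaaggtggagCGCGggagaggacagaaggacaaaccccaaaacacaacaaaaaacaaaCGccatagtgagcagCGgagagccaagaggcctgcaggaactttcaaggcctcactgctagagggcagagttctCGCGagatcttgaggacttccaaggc
Ddx3x: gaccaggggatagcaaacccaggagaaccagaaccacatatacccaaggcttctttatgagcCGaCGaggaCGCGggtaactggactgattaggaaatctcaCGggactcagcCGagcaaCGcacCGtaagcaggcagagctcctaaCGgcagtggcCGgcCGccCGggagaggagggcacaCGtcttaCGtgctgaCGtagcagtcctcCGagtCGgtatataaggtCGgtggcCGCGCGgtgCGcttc
Mcts2: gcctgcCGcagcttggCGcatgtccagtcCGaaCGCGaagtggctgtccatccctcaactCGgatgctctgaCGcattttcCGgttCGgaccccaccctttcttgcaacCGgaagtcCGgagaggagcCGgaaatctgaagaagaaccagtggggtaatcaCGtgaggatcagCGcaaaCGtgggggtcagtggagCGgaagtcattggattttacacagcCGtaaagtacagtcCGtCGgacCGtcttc
Mcts1: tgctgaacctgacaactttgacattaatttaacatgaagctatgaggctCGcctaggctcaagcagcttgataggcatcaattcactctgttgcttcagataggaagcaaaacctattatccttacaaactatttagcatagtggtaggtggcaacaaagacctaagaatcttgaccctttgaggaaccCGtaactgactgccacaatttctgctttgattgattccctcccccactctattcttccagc

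Upstream of Pdha2 there were 4 CG dinucleotides, against 15 upstream of Pdha1, and D1Pas1 had 11 against 22 at Ddx3x. The Mcts pair ran the other way, with 20 at Mcts2 and 2 at Mcts1. Whether the annotated starts, that of Mcts1 among them, are the ones used in these tissues was not tested. In the whole promoter window, which adds 50 bases after the start, the germ cell members had a median of 12 CG dinucleotides and the widely expressed members 22, while all tested genes had 20 and liver members 4.5. These medians rest on 81 germ cell, 89 widely expressed and 12 liver members that matched a promoter entry. Of 44 families with both a germ cell and a widely expressed promoter, the germ cell median was lower in 29 and higher in 15. The cyclic AMP response element TGACGTCA, a palindrome that reads the same on both strands, was searched because CREM, which can bind it, is known to act in spermatids. It was found in 3 of the 81 germ cell promoters (3.7%) and 1 of the 89 widely expressed ones (1.12%), against 3.47% of the 8531 tested genes with a promoter and 2.03% of all 27025 promoters. The shorter motif TGACG, which lies within it and was searched on both strands, was in 29.6% of the germ cell promoters, 47.2% of the widely expressed ones and 34.8% of those of all tested genes. In liver members it was in 16.7%. TGACG itself holds a CG, and these shares ran in the same order as the CG medians above. Whether they differ beyond the CG content was not tested. The full motif was found at Suv39h2, Ube2b and Spag4 among germ cell members and at Cycs. Spag4, a SUN protein gene that is described with the nuclear envelope below, is shown with the motif in capitals, 37 bases before its start (chr2:156064963-156065212, plus strand).
Spag4: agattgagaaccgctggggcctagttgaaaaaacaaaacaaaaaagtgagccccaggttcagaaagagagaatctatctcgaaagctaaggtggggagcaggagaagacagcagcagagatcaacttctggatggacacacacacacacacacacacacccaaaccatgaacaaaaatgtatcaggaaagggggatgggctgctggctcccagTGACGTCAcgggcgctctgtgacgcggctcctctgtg

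Mitosis and meiosis use different cohesin subunits, and here too the X-linked forms were those low in spermatids. Smc1b, the meiotic SMC1 subunit, had 12.59, 12.31 and 12.31 in spermatids, against 2.46, 2.39 and 2.43 in liver (change 9.98, SE 0.12, adjusted p = 7.83e-20). The X-linked Smc1a had 3.05, 2.83 and 3.74 in spermatids, against 9.27, 9.06 and 9.21 in liver (change -5.97, SE 0.25, adjusted p = 7.43e-13). Stag3, the meiotic STAG subunit, had 14.17, 13.95 and 13.88 in spermatids and 2.24, 2.13 and 2.27 in liver, so both meiotic subunits were high on the spermatid arrays. The meiotic markers Sycp3 (12.32) and Sycp2 (12.12) were high there as well, while Stra8 (2.10) and Prdm9 (2.28) lay below 3. What part of such transcripts came from spermatocytes in the sort was not tested. The X-linked Stag2 had 3.26, 3.27 and 3.29 in spermatids, against 9.46, 9.53 and 9.84 in liver, a change of -6.34 (SE 0.31). Stag1, which is autosomal, had means of 6.40 ± 0.03 in spermatids and 6.10 ± 0.25 in liver (SD, n = 3 each) and did not pass (change 0.30, SE 0.25, adjusted p = 0.26). In the kleisin pair, which closes the cohesin ring, the meiotic Rec8 rose by 9.19 (SE 0.30) and the mitotic Rad21, also autosomal, fell by 3.04 (SE 0.26) with 7.35 ± 0.40 in spermatids and 10.39 ± 0.33 in liver (SD, n = 3 each).

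Among X-linked members that fell further were Slc25a5 (-7.21, SE 0.70), Acsl4 (-6.50, SE 0.21), Ube2a (-4.48, SE 0.29), Rbmx (-4.13, SE 0.23), Ubqln2 (-3.24, SE 0.27), Cetn2 (-2.37, SE 0.18), Ubl4a (-1.18, SE 0.47) and Cstf2 (-0.73, SE 0.26). The exceptions were Cul4b and Utp14a. Cul4b, a scaffold of a ubiquitin ligase, had 12.41, 12.23 and 12.92 in spermatids, against 8.46, 8.70 and 9.16 in liver, and rose by 3.75 (SE 0.36, adjusted p = 4.65e-08). Its autosomal paralogue Cul4a, put down as the germ cell member, fell by 1.55 (SE 0.24, adjusted p = 1.12e-05) with 10.95 ± 0.41 in spermatids and 12.50 ± 0.03 in liver (SD, n = 3 each), so this pair moved against the pattern of the others. Utp14a, for a ribosome assembly factor, had 9.49, 9.21 and 9.71 in spermatids, against 9.40, 9.09 and 8.69 in liver, and did not pass (change 0.41, SE 0.45, adjusted p = 0.394), while its autosomal copy Utp14b rose by 6.85 (SE 0.24). For 2 further X-linked genes with autosomal counterparts the counterpart did not pass. Cstf2t, the autosomal copy of the RNA cleavage factor gene Cstf2, had 11.53 ± 0.19 in spermatids and 11.82 ± 0.14 in liver (change -0.28, SE 0.15, adjusted p = 0.0909). Ube2b, the autosomal partner of the ubiquitin-conjugating Ube2a, had 12.10 ± 0.26 in spermatids and 12.16 ± 0.07 in liver (SD, n = 3 each, change -0.07, adjusted p = 0.556). There were also 3 germ cell members on the X chromosome itself, and all rose: Actrt1 by 8.64, Taf7l by 6.44 and Tktl1 by 2.30. All 3 reached the minimum only through spermatids, so that their direction was fixed by the filter. Over all tested X genes 35.7% rose.

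**Figure D2:**
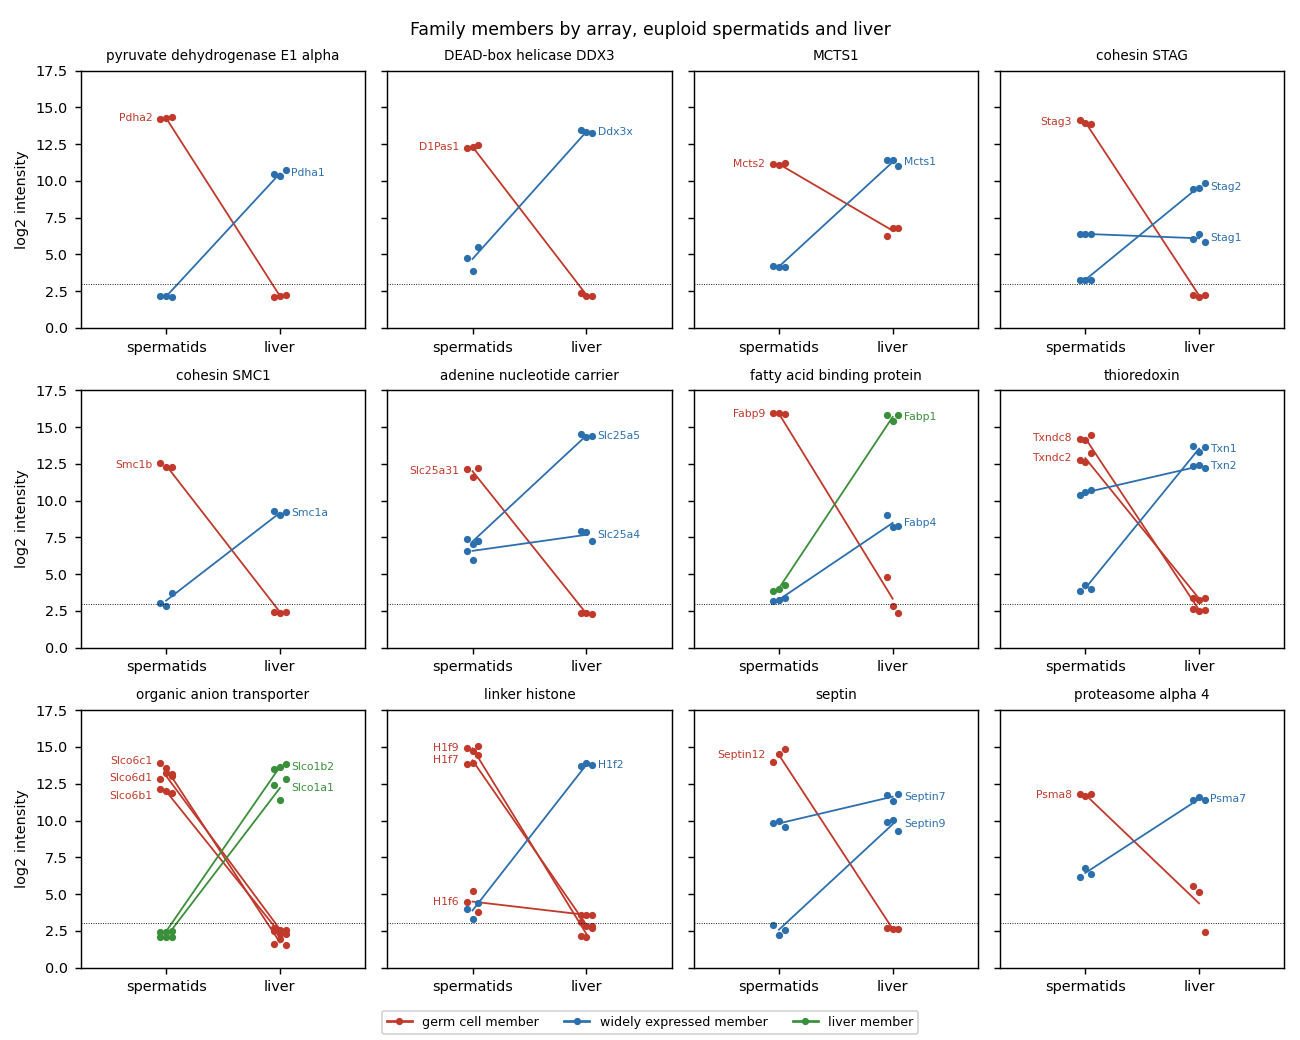
Log2 intensity of each array (points) and group means (line ends) for the members of 12 families that moved apart, with the 3 euploid spermatid arrays left of the 3 euploid liver arrays. The dotted line marks 3, the top of the background range. Lines of germ cell members fall to the right and those of the other members climb, except that of Stag1, which did not pass, while single liver arrays of Fabp9 and Psma8 lie apart from the other arrays of their group.

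In sugar metabolism germ cell forms rose, and most liver forms fell. Of 34 tested members in 19 families, 21 rose, 11 fell and 2 did not pass, and 5 of the 10 families with at least 2 tested members moved apart by at least 2. At the entry of glucose, Slc2a3, a high-affinity transporter, had 14.34, 14.54 and 14.22 in spermatids, against 4.41, 3.76 and 4.91 in liver (change 10.01, SE 0.25, adjusted p = 7.59e-16). The liver transporter Slc2a2 had 1.76, 1.78 and 1.81 in spermatids, against 13.73, 13.86 and 14.10 in liver (change -12.11, SE 0.09, adjusted p = 6.77e-23). Slc2a1, used by many cell types, fell as well, with 3.24, 3.25 and 3.32 in spermatids and 8.72, 8.64 and 8.99 in liver. Phosphofructokinase, the committed step of glycolysis, has a platelet, a muscle and a liver form. Pfkp had 10.89, 10.92 and 10.74 in spermatids, against 3.89, 3.78 and 3.90 in liver, and Pfkm had 13.00, 13.07 and 12.67 against 8.87, 9.34 and 8.85. Pfkl, the liver form, had 2.41, 2.27 and 2.95 in spermatids, against 10.55, 10.66 and 10.81 in liver, so it was the only form of the enzyme in the background range in spermatids.

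Lower in the pathway the germ cell isozymes were near the top of the scale. Pgk2, an autosomal phosphoglycerate kinase copied from an X-linked gene, had 15.85, 16.00 and 16.16 in spermatids, against 3.50, 3.44 and 2.82 in liver (change 12.75, SE 0.26, adjusted p = 4.48e-17). Pgam2, a phosphoglycerate mutase shared with muscle, had 15.27, 15.30 and 15.45 in spermatids and 3.15, 3.02 and 2.65 in liver. Pyruvate kinase moved apart, with Pkm at 12.30, 12.23 and 12.71 in spermatids, against 8.49, 8.21 and 8.37 in liver, and Pklr, the liver and red cell form, at 2.06 to 2.10 against 9.53 to 10.18. Their changes were 4.06 (SE 0.22) and -7.83 (SE 0.21). All 3 lactate dehydrogenase genes in the table rose: Ldhal6b as above, Ldhc by 12.88 (SE 0.62) and Ldhb by 2.78 (SE 0.50). Ldhc, the sperm isozyme, had 16.19, 16.08 and 16.15 in spermatids, and its liver arrays of 5.65, 2.19 and 1.97 disagreed, with replicate 1 above the background range.

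In the pentose phosphate pathway the transketolase genes moved apart. Tktl2 had 10.21, 10.41 and 10.21 in spermatids, against 2.47, 2.44 and 2.89 in liver, a change of 7.68 (SE 0.15). Tktl1, which is X-linked, had only 5.42, 4.25 and 4.62 in spermatids, against 2.49, 2.48 and 2.43 in liver. Tkt, the common form, had 5.65, 5.71 and 5.73 in spermatids, against 10.57, 10.36 and 10.44 in liver, and fell by 4.76 (SE 0.24). Several other isozymes, named here after their values were seen, rose as well. Gapdhs, the glyceraldehyde-3-phosphate dehydrogenase of the sperm tail, rose by 12.23 (SE 0.39), Eno4 by 10.38 (SE 0.17), Hk1 by 10.17 (SE 0.60) and Pfkfb4 by 5.39 (SE 0.33). The genes of hepatic glucose handling Pck1 (-10.90, SE 0.16), Pygl (-10.82, SE 0.35) and Gys2 (-9.57, SE 0.09) fell. So did genes of the brain forms of aldolase and glycogen phosphorylase, Aldoc by 6.14 (SE 0.30) and Pygb by 1.89 (SE 0.47). Fbp1, the gluconeogenic fructose bisphosphatase, was different from these: it had 15.33, 15.28 and 15.16 in spermatids, against 15.27, 15.47 and 15.42 in liver (change -0.13, SE 0.15, adjusted p = 0.425). Both tissues had Fbp1 near the top of the scale, and its groups overlapped.

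All 27 tested mitochondrial members passed, 16 rising and 11 falling, where 91.3% of all genes passed. Of 10 families with at least 2 tested members, 8 moved apart by at least 2. Slc25a2, an ornithine carrier, had 13.31, 13.59 and 13.52 in spermatids, against 2.20, 2.12 and 2.18 in liver, and Slc25a15, the carrier of the urea cycle, had 2.52, 2.54 and 2.58 against 11.03, 10.26 and 10.91. Their changes were 11.31 (SE 0.24, adjusted p = 7.54e-17) and -8.19 (SE 0.17, adjusted p = 9.21e-17). Of the adenine nucleotide carriers, which exchange ADP for ATP, Slc25a31 of germ cells had 12.14, 11.63 and 12.25 in spermatids, against 2.36, 2.33 and 2.31 in liver. The X-linked Slc25a5 had 7.38, 7.04 and 7.26 in spermatids, against 14.55, 14.35 and 14.39 in liver. Slc25a4, the muscle and heart form, fell by 1.09 (SE 0.40, adjusted p = 0.0179) with arrays at 6.55, 5.99 and 7.23 in spermatids and 7.93, 7.89 and 7.23 in liver, which touch, and this call was lost without spermatid replicate 2 (-0.79, adjusted p = 0.0946), without liver replicate 1 (-0.96, adjusted p = 0.0593) and without liver replicate 2 (-0.99, adjusted p = 0.0552).

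The respiratory chain and the malate shuttle had germ cell forms as well. Cox6b2, a testis form of a cytochrome oxidase subunit, had 13.52, 13.58 and 13.71 in spermatids, against 2.65, 2.60 and 2.90 in liver, a change of 10.89 (SE 0.21), while Cox6b1 had 9.92, 9.98 and 9.94 against 14.45, 14.58 and 14.44. Cox6b1 therefore fell by 4.54 (SE 0.11) but kept a clear signal in spermatids. Cox7b2, whose common counterpart had no row in the table used here, rose by 9.56 (SE 0.11). Mdh1b had 13.55, 13.84 and 13.66 in spermatids, against 1.92, 2.26 and 2.00 in liver. The cytosolic malate dehydrogenase gene Mdh1 had 7.47, 7.72 and 7.71 in spermatids, against 15.30, 14.78 and 14.79 in liver, with a change of -7.32 (SE 0.23).

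Carnitine palmitoyltransferase 1, which gates that entry, rose in its brain form Cpt1c (11.88, 11.69 and 11.72, against 2.06, 2.30 and 2.04 in liver) and the muscle form Cpt1b (10.10, 10.43 and 10.36, against 2.24, 2.26 and 2.41 in liver). The liver form Cpt1a had 4.43, 4.43 and 4.46 in spermatids, against 11.12, 11.17 and 11.15 in liver, and fell by 6.71 (SE 0.09). Whether its even level in spermatids is a floor of its probes was not tested. Among acyl-CoA synthetases, which activate fatty acids, Acsl6 rose by 11.10 (SE 0.17), while Acsl3 fell by 3.59 (SE 0.27) and the X-linked Acsl4 fell by 6.50 (SE 0.21). Acsbg2, of the bubblegum type, rose by 10.67 (SE 0.38) with 13.19, 13.04 and 13.70 in spermatids and 2.78, 2.39 and 2.75 in liver. Both tested forms of succinyl-CoA ketoacid transferase, which lets a cell use ketone bodies, rose. Oxct2a had 13.93, 14.14 and 14.64 in spermatids, against 2.06, 1.97 and 1.98 in liver, and Oxct1 had 11.07, 11.26 and 11.50 against 6.09, 5.28 and 5.89. Whether the probes of Oxct2a also read its close copy Oxct2b was not tested. Timm8a2, a chaperone of import into mitochondria, rose by 6.55 (SE 0.21).

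In redox control and transport 14 of 30 tested members rose and 15 fell, and 8 of 10 families with at least 2 tested members moved apart by at least 2. Among the fatty acid binding proteins, Fabp9, found in the perforatorium under the acrosome, had 15.95, 15.94 and 15.89 in spermatids, against 4.78, 2.85 and 2.38 in liver (change 12.59, SE 0.39, adjusted p = 1.4e-14), and Fabp1 of liver had 3.85, 3.98 and 4.29 against 15.86, 15.44 and 15.80 (change -11.66, SE 0.13, adjusted p = 1.79e-20). Fabp4, known from fat cells and macrophages, fell by 5.22 (SE 0.25). Liver replicate 1 was the highest liver array for Fabp9 as it was for Ldhc, another abundant germ cell transcript.

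Organic anion transporters divided into gonadal and hepatic genes. Slco6c1 had 13.92, 13.54 and 13.17 in spermatids, against 1.63, 1.97 and 1.53 in liver, and Slco6d1 (change 10.43, SE 0.19) and Slco6b1 (change 9.66, SE 0.30) rose with it. Slco1b2, which takes bile salts and drugs into hepatocytes, had 2.45, 2.44 and 2.49 in spermatids, against 13.50, 13.63 and 13.83 in liver, a change of -11.19 (SE 0.10). Slco1a1, another hepatic uptake gene, fell by 10.13 (SE 1.44, adjusted p = 5.6e-06) in the euploid arrays, with an SE that pools the spread of all groups, and its trisomic liver arrays lay at 10.70, 2.03 and 9.97.

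The thioredoxin system supplies reducing power to proteins and has sperm-specific parts. Txndc8 had 14.18, 14.14 and 14.45 in spermatids, against 2.64, 2.53 and 2.54 in liver, and Txndc2 had 12.80, 12.64 and 13.24 against 3.40, 3.25 and 3.38. The common cytosolic Txn1 had 3.84, 4.27 and 4.02 in spermatids, against 13.71, 13.29 and 13.63 in liver, a change of -9.50 (SE 0.53, adjusted p = 3.88e-11). The mitochondrial Txn2 stayed far above background in both tissues and fell by 1.78 (SE 0.14). Of the reductases, Txnrd3 rose by 7.25 (SE 0.24) with 14.31, 14.32 and 14.27 in spermatids and 6.56, 6.81 and 7.78 in liver, while Txnrd1 fell by 1.46 (SE 0.45) and the mitochondrial Txnrd2 fell by 5.85 (SE 0.16). Gpx1, a glutathione peroxidase, fell by 11.29 (SE 0.23) with 4.74 ± 0.48 in spermatids and 16.03 ± 0.05 in liver (SD, n = 3 each).

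Antizymes bring about the breakdown of ornithine decarboxylase and so control polyamines. Oaz3 of spermatids had 14.55, 14.47 and 14.79 in spermatids, against 3.04, 2.45 and 2.47 in liver, a change of 11.95 (SE 0.28). Oaz1 fell by 3.82 (SE 0.14), and Oaz2 rose by 3.61 (SE 0.44). The antizyme inhibitor Azin2 rose by 9.15 (SE 0.37), and Azin1 did not pass, with 9.99 ± 0.20 in spermatids and 9.79 ± 0.16 in liver (SD, n = 3 each, adjusted p = 0.29). Among proprotein convertases, which cut secreted proteins to their active form, the acrosomal Pcsk4 rose by 7.17 (SE 0.28), Furin fell by 7.84 (SE 0.18) and Pcsk7 fell by 2.01 (SE 0.27). Furin was at 3.07, 3.11 and 2.67 in spermatids, against 10.89, 10.58 and 10.92 in liver.

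**Figure D3:**
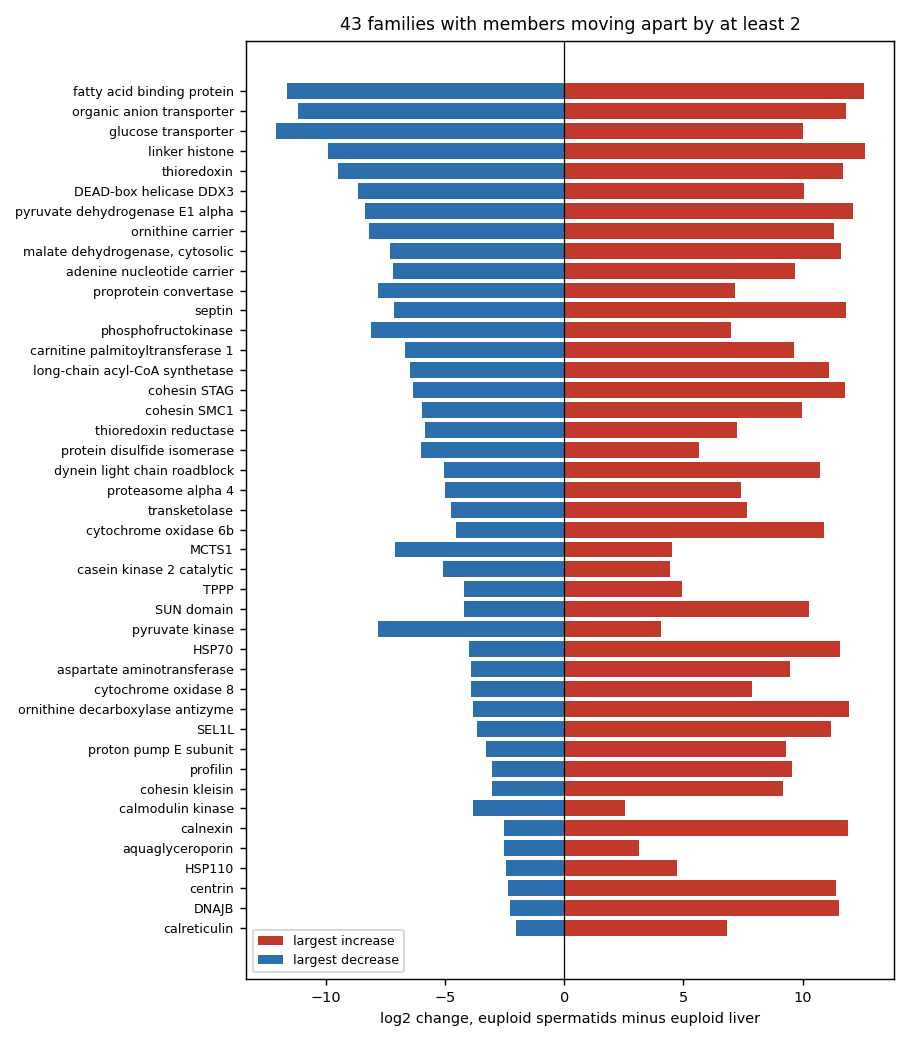
Largest increase (red) and largest decrease (blue) on the log2 scale, euploid spermatids minus euploid liver, in each of the 43 families that held a member that rose and a member that fell, both by at least 2. Families are ordered by the smaller of both changes, from the fatty acid binding proteins (12.59 and -11.66) at the top to the calreticulins (6.83 and -2.03) at the bottom.

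In RNA handling and translation many germ cell members rose whose common counterparts could not be read. Of 19 tested members 12 rose, 4 fell and 3 did not pass, and among 7 families with at least 2 tested members only DDX3 and MCTS1 moved apart by at least 2. Pabpc2, a poly(A) binding protein, had 15.53, 15.58 and 15.47 in spermatids, against 2.58, 2.37 and 2.54 in liver (change 13.03, SE 0.16, adjusted p = 5e-20), the largest change of the class. Rpl39l, a copy of the X-linked ribosomal protein gene Rpl39, had 14.98, 14.89 and 14.84 in spermatids, against 3.05, 2.68 and 1.97 in liver. The common counterparts Pabpc1, Pabpc4 and Rpl39 had no row in the table used here. For poly(A) polymerase, both forms rose: the testis form Papolb by 12.21 (SE 0.18) and the common Papola by 1.85 (SE 0.15). The Y-box proteins, which hold messages in store for later translation, rose likewise, Ybx2 by 11.81 (SE 0.10) and Ybx3 by 4.77 (SE 0.16). Ybx3 had 15.42, 15.53 and 15.27 in spermatids and was well above background in liver at 10.56, 10.70 and 10.63.

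In transcription and chromatin 17 of 28 tested members rose, 7 fell and 4 did not pass. The linker histones, which close the nucleosome, moved apart the most. H1f9 (listed in the table as Hils1), a spermatid form, had 14.90, 14.76 and 15.07 in spermatids, against 2.15, 2.07 and 2.66 in liver, and H1f7, another spermatid form, had 13.87, 13.93 and 14.47 against 3.07, 2.82 and 2.82. The somatic H1f2 had 3.97, 3.31 and 4.37 in spermatids, against 13.71, 13.88 and 13.78 in liver, a change of -9.91 (SE 0.36, adjusted p = 1.35e-13). H1f6, the testis form of meiotic cells, was close to background in both, with 4.46, 5.24 and 3.76 in spermatids and 3.57, 3.57 and 3.60 in liver, and its call (change 0.90, adjusted p = 0.0452) was lost without spermatid replicate 2 (0.52, adjusted p = 0.235) and under most alternatives. Its means were low in pre-mid-pachytene (3.47) and mid-late-pachytene (4.31) cells too, and whether its probes read the transcript was not tested. Hmgb4 rose by 10.87 (SE 0.37).

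Of the general transcription factors, the TFIIA and TBP pairs rose on both sides, while the TFIID subunit gene Taf7l rose by 6.44 (SE 0.46) and Taf7 did not pass (change 0.56, SE 0.33, adjusted p = 0.118). Gtf2a1l, the germ cell form of the large TFIIA subunit, had 14.90, 14.77 and 14.59 in spermatids, against 2.26, 2.19 and 2.32 in liver, and the common Gtf2a1 had 7.72, 7.66 and 7.90 against 5.07, 5.64 and 5.60. Tbp, the TATA-binding protein, had 12.49, 12.57 and 12.14 in spermatids, against 5.96, 5.68 and 5.15 in liver, a change of 6.80 (SE 0.27). Its relative Tbpl1, needed for spermatid gene expression in mice, rose by 3.91 (SE 0.14). Of the BET readers of acetylated histones, Brdt rose by 9.99 (SE 0.17), Brd3 by 5.54 (SE 0.23) and Brd2 by 1.83 (SE 0.18). Crem, the cyclic AMP response factor of spermatids, was 1 of the 2 germ cell members that fell (chosen after its value was seen), with 8.53 ± 0.15 in spermatids and 9.83 ± 0.22 in liver (SD, n = 3 each, change -1.30, SE 0.20, adjusted p = 1.3e-05), and the table has no value per splice form. The other was Cul4a.

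All 30 tested members of the cytoskeleton and nuclear envelope passed, with 19 higher and 11 lower, where 91.3% of all genes passed. Of 8 families with at least 2 tested members, 6 moved apart by at least 2. Septin12, part of the ring between the sections of the sperm tail, had 14.01, 14.50 and 14.88 in spermatids, against 2.69, 2.59 and 2.60 in liver (change 11.83, SE 0.26, adjusted p = 1.13e-16). Septin9 had 2.91, 2.24 and 2.57 in spermatids, against 9.89, 10.05 and 9.30 in liver, a change of -7.17 (SE 0.31), and Septin7 fell by 1.82 (SE 0.21). The dynein light chain Dynlrb2 of cilia had 13.18, 13.06 and 12.81 in spermatids, against 2.33, 2.26 and 2.28 in liver, and Dynlrb1 of general transport had 4.65, 3.88 and 3.68 against 9.53, 9.05 and 8.76. Their changes were 10.72 (SE 0.14) and -5.05 (SE 0.34). Centrins, at the base of cilia and in centrioles, had Cetn1 higher by 11.42 (SE 0.17) and Cetn3 by 3.90 (SE 0.10), and the X-linked Cetn2 fell by 2.37 (SE 0.18).

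SUN proteins span the inner nuclear membrane and join the nucleus to the cytoskeleton. Spag4 had 13.63, 13.23 and 13.50 in spermatids, against 2.30, 2.80 and 4.38 in liver (change 10.29, SE 0.49, adjusted p = 4.04e-12). Sun5 rose by 10.18 (SE 0.42), Sun3 by 9.08 (SE 0.18) and the broadly used Sun1 by 4.05 (SE 0.31), while Sun2 fell by 4.21 (SE 0.19) with 6.84, 7.49 and 7.51 in spermatids and 11.23, 11.54 and 11.70 in liver. Of the profilins, which feed actin to growing filaments, Pfn3 rose by 9.56 (SE 0.55) and Pfn2, known from neurons, by 6.68 (SE 0.13), and Pfn1 fell by 3.04 (SE 0.30). Tppp fell by 4.21 (SE 0.31) and Tppp3 rose by 4.95 (SE 0.48), both of which bind tubulin. Tuba3a, an alpha tubulin of testis, had 15.98, 16.10 and 15.97 in spermatids, against 3.22, 3.0 and 2.81 in liver, and whether its probes also read the close copy Tuba3b was not tested. Dpy19l1 (-3.19, SE 0.16) and Nup210 (-2.65, SE 0.42) fell, and their germ cell relatives had no row in the table used here (Dpy19l2) or lay below 4 in both groups (Nup210l). Dpy19l1 had 9.22, 9.22 and 9.20 in spermatids, and whether so even a level is a floor of its probes was not tested.

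Protein folding and turnover had 16 members that rose and 17 that fell of 34 tested, and 8 of 12 families with at least 2 tested members moved apart by at least 2. In the endoplasmic reticulum the genes of germ cell and common folding proteins moved in opposite directions. Clgn, a calnexin-like chaperone of sperm surface proteins, had 14.05, 14.43 and 14.60 in spermatids, against 2.58, 2.38 and 2.42 in liver (change 11.90, SE 0.21), and Canx had 10.76, 10.81 and 10.72 against 13.21, 12.97 and 13.69 (change -2.53, SE 0.16). The disulfide isomerase Pdilt rose by 5.65 (SE 0.50) with 12.18, 11.75 and 12.28 in spermatids and 5.57, 5.95 and 7.74 in liver, while P4hb fell by 6.0 (SE 0.11) and Pdia3 fell by 0.85 (SE 0.14). Sel1l2 had 13.54, 13.19 and 13.42 in spermatids, against 2.27, 2.10 and 2.23 in liver, and Sel1l, an adaptor of the degradation of misfolded proteins, had 5.94, 6.28 and 5.64 against 9.19, 9.73 and 9.91.

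In the cytosol the HSP70 chaperones split by tissue. Hspa1l had 14.17, 14.28 and 14.71 in spermatids, against 3.22, 2.63 and 2.59 in liver, and Hspa2, needed for meiosis in male mice, had 14.26, 14.24 and 13.92 against 5.68, 3.82 and 3.95. Hspa8, the form present in most cells, had 11.98, 12.40 and 12.66 in spermatids, against 16.57, 16.25 and 16.29 in liver, and fell by 4.02 (SE 0.15). Smaller decreases were found for Hspa5 of the endoplasmic reticulum (-1.23, SE 0.13) and Hspa9 of mitochondria (-0.52, SE 0.09). Hspa4l, of the HSP110 group, rose by 4.74 (SE 0.28), and Hspa4 fell by 2.44 (SE 0.19). Cct6b, a testis subunit of the chaperonin that folds actin and tubulin, had 15.12, 15.13 and 15.07 in spermatids, against 3.12, 2.61 and 2.61 in liver.

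In the proteasome core the genes of an alpha subunit moved apart. Psma8, the testis form, had 11.77, 11.70 and 11.82 in spermatids, against 5.54, 5.14 and 2.42 in liver, a change of 7.40 (SE 0.55, adjusted p = 1.82e-09), and Psma7 had 6.18, 6.74 and 6.38 against 11.39, 11.61 and 11.39 (change -5.03, SE 0.21). The liver arrays of Psma8 lay on both sides of the background limit. All 3 ubiquilins tested fell, Ubqln2 by 3.24 (SE 0.27), Ubqln1 by 1.49 (SE 0.22) and Ubqln4 by 0.67 (SE 0.16).

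Among kinases and phosphatases 9 of 17 tested members rose and 7 fell, and 2 of 8 families moved apart by at least 2. Csnk2a2, a casein kinase catalytic subunit whose loss deforms sperm heads in mice, had 12.75, 12.77 and 12.67 in spermatids, against 7.92, 8.42 and 8.52 in liver (change 4.44, SE 0.17). Csnk2a1 had 3.72, 3.74 and 3.63 in spermatids, against 8.52, 8.75 and 9.07 in liver, a change of -5.08 (SE 0.20). Camk4 rose by 2.54 (SE 0.28) and Camk1 fell by 3.82 (SE 0.09). Cyclin A moved up in both forms, the meiotic Ccna1 by 9.46 (SE 0.12) and the mitotic Ccna2 by 3.0 (SE 0.50). Aurka, a spindle kinase, rose by 11.71 (SE 0.82) with 13.89, 14.16 and 13.68 in spermatids and 2.04, 2.21 and 2.34 in liver, and Aurkb rose by 5.58 (SE 0.56). Of the phosphatase 1 subunits, Ppp1ca had 5.28, 3.27 and 4.16 in spermatids, against 13.04, 12.90 and 12.89 in liver, a change of -8.71 (SE 0.37), and Ppp1cb fell by 3.89 (SE 0.16). Gsk3a, required for sperm motility in mice, did not pass (11.11 ± 0.21 in spermatids, 10.84 ± 0.20 in liver, SD, n = 3 each, adjusted p = 0.261), and Gsk3b fell by 1.59 (SE 0.17). The other families with members in both directions, named after their values were seen, included capping protein, with Capza3 up by 11.73 (SE 0.36) and Capza2 down by 1.93 (-1.93, SE 0.19), and calcineurin B, with Ppp3r2 at 10.63 (SE 0.29) and Ppp3r1 at -1.61 (SE 0.34).

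The germ cell members were also followed over the spermatocyte stages. The median level over the 99 germ cell members was 11.21 in pre-mid-pachytene cells, 12.22 in mid-late-pachytene cells and 12.98 in spermatids, against 2.64 in liver. Against mid-late-pachytene spermatocytes, 52 of the 99 rose in spermatids and 15 fell, where 30.1% of 8727 tested genes rose and 35.6% fell. With arrays centred on their median these counts were 45 and 24, so they depend on the scaling. Against pre-mid-pachytene spermatocytes, 81 rose and 10 fell, where 48.3% of 9266 tested genes rose and 37.3% fell. Ldhc had means of 15.35 in pre-mid-pachytene cells, 16.22 in mid-late-pachytene cells and 16.14 in spermatids, and Slc25a2 had 7.17, 13.48 and 13.47 in that order of stages. Some genes of late sperm assembly had another course, with the lowest value in the middle: Oaz3 had 14.39, 10.38 and 14.60, Gapdhs had 13.45, 10.39 and 14.40, and H1f7 had 13.06, 8.95 and 14.09. The 2 mid-late-pachytene arrays differed, at 11.08 and 9.68 for Oaz3, 11.16 and 9.61 for Gapdhs and 9.57 and 8.34 for H1f7. Both lay below every array of the other germ cell stages for these genes. Array medians of the 8 spermatid markers also had their lowest value in the middle. They were 13.59 to 13.94 in pre-mid-pachytene, 10.35 to 11.42 in mid-late-pachytene and 14.41 to 14.66 in spermatid arrays. Not all 8 did so: Tssk1 (10.11, 10.53 and 13.8) and Spaca1 (11.2, 12.72 and 15.4) had no such dip. Prm1, Tnp1 and Tnp2 had 15.95, 15.39 and 14.17 in pre-mid-pachytene arrays, which thus held transcripts known from spermatids. The part of such transcripts in the pre-mid-pachytene values of the members was not tested.

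The X-linked members that are widely expressed had a course of their own. Their median level was 7.08 in pre-mid-pachytene cells, 4.29 in mid-late-pachytene cells and 4.69 in spermatids, against 9.61 in liver. From mid-late-pachytene spermatocytes to spermatids 7 of the 10 tested rose and 0 fell by limma, while 82.8% of the 180 tested X genes rose and 0.556% fell. With arrays centred on their median, 6 of the 10 rose and 0 fell. Against pre-mid-pachytene spermatocytes 10 of the 13 tested fell and 3 rose, where 61.2% of the 273 tested X genes fell and 29.3% rose. The members' counts thus ran with those of the X chromosome. Cul4b had 10.30, 8.43 and 12.52 along the stages, Utp14a had 8.26, 5.30 and 9.47, and Pdha1 had 3.09, 2.16 and 2.14. The 2 mid-late-pachytene arrays were far apart at 9.27 and 7.59 for Cul4b and 6.67 and 3.94 for Utp14a. All 4 values lay below every array of the other germ cell stages. The autosomal widely expressed members, 91 in number, had medians of 9.14, 9.24 and 8.72 along the stages and 9.11 in liver.

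**Figure D4:**
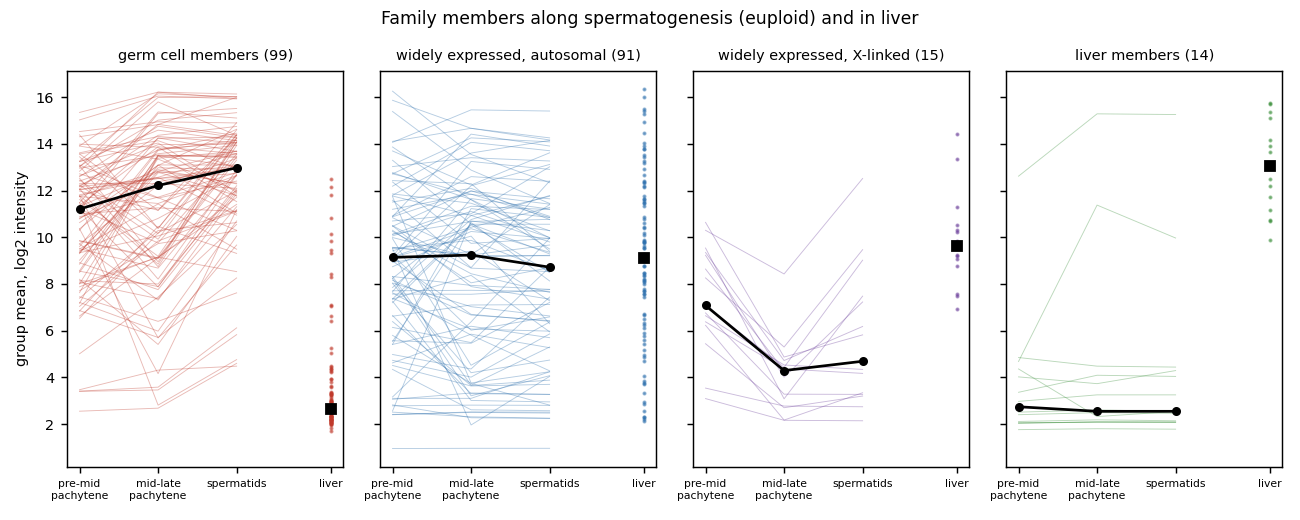
Group means of log2 intensity for each family member (thin lines) for euploid pre-mid-pachytene (n = 3) and mid-late-pachytene (n = 2) spermatocytes and spermatids (n = 3), with liver (n = 3) as points on the right of each panel. Black lines and squares are medians over the members: the X-linked panel runs from 7.08 over 4.29 to 4.69, with 9.61 in liver.

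The trisomic arrays share no sample with the euploid ones and repeat the comparison. Both comparisons came from the same fit, so their SEs and calls rest on a shared estimate of each gene's spread. Of the 9506 genes called in euploids, 9061 had the same sign and call in trisomics, where 4947 of 10471 genes (47.2%) rose and 4616 (44.1%) fell. All 99 germ cell members, all 14 liver members and 100 of the 106 widely expressed members had the same call in both. In euploids 77 of the germ cell members passed the minimum only through spermatids and 9 of the liver members only through liver. Of the widely expressed members, 11 passed only through spermatids and 18 only through liver. For all of these the direction followed largely from the filter, so a repeated call adds little. Pdha2 changed by 12.01 in trisomics and 12.10 in euploids, Pdha1 by -8.01 and -8.37, D1Pas1 by 9.98 and 10.07, Ddx3x by -8.42 and -8.65, and Fabp9 by 12.97 and 12.59.

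Transporters and aldehyde dehydrogenases were then grouped by the stem of their gene names, a grouping added after the values were seen. Of 247 tested genes of the Slc, Slco, Abc and Aldh groups 70 rose and 160 fell, where 47.2% of all genes rose and 44% fell. Changes of at least 2 in both directions were held by 21 of 45 subfamilies with at least 2 tested genes, where 34.7% of all genes rose and 31.8% fell by that much. Nothing particular to these subfamilies is read from the count. Slc2a5, a fructose transporter, had 13.63 ± 0.13 in spermatids and 2.68 ± 0.33 in liver, a change of 10.95 (SE 0.15). In other subfamilies the largest increase and decrease were those of Slc25a2 (11.31) and the aspartate-glutamate carrier gene Slc25a13 (-10.94), the retinoic acid-forming Aldh1a2 (9.66) and the folate enzyme gene Aldh1l1 (-10.87), Slc6a16 (9.16) and Slc6a13 (-10.80), Abca14 (8.27) and Abca8a (-9.23). Slc22a14, needed for sperm motility in mice, rose by 11.14 (SE 0.34), and Slc22a7, a hepatic anion transporter, fell by 8.17 (SE 0.38). Slc26a8, an anion transporter of the sperm tail, rose by 4.64 (SE 0.35), and Slc26a1, a sulfate transporter of liver, fell by 11.53 (SE 0.08). Abcc2, the canalicular exporter of conjugates, fell by 10.57 (SE 0.06) and Abcc12 rose by 8.20 (SE 0.30), and the bile salt export pump gene Abcb11 fell by 8.73 (SE 0.56) while Abcb9, of lysosomes, rose by 4.04 (SE 0.14).

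Part of the families could not be read. Of the 291 listed genes 59 had no row in the table used here, among them Gapdh, Pgk1, Ldha, Eno1, Gk, G6pdx, Gpx4, Rpl10l, Rpl10, Rps4x, Ybx1, Pabpc1, Actg1, Tuba1b, Cct6a, Ppp1cc and all 3 sodium pump alpha genes. The increases of Gapdhs, Pgk2, Pgam2, Gk2 and Cct6b therefore stand without a measured common counterpart. A further 13 had means below 4 in both groups: Hk3, Hkdc1, Eno2, Fbp2, Pck2, Pygm, Gys1, Acsbg1, Gpam, Aqp3, Nup210l, Dpy19l3 and Camk2g.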

How the data were processed

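RNA from 22 samples was hybridised to Affymetrix arrays. The deposited values are log2 intensities that the authors computed with GCRMA, per the submitters' processing notes, whose version is not given. GCRMA subtracts a background by GC content, so that low genes gather near a floor and changes against it are compressed or stretched. The table held 16539 probe sets, of which 15780 carried 1 gene symbol and 759 none. Chromosomes came from a RefSeq table of GRCm38.p6, which placed 15752 genes.

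Group means of all 22 arrays (8 groups) were fitted with limma 3.58.1 in R 4.3.3, without a block. Tests were two-sided, over genes whose mean reached 4 in either compared group, with Benjamini-Hochberg adjustment over all of them at 0.05. SEs are limma's, SDs those of the arrays. The code was tested on simulated data. Other steps used python 3.11.15 and pandas 2.3.3. The number of arrays limits the precision, and groups have 3 arrays, or 2 for mid-late-pachytene spermatocytes.

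Members, families and gene lists were chosen with earlier results of these data known. Named were the 10 largest changes in each direction, per class up to 6 families that moved apart by at least 2 and up to 4 others, and any gene described as chosen or named after its value was seen. X-linked members were all named.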

Additional observations from a re-analysis of the deposited data

Results flagged for a closer look

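The euploid and trisomic differences between spermatids and liver were set against each other by an interaction term in limma. The difference passed for 4 of 191 named genes (2.09%), against 366 of 10621 genes (3.45%). Slc2a3 changed by 11.65 in trisomic and 10.01 in euploid animals, a difference of 1.64 (SE 0.35, adjusted p = 0.0171), with 14.43 in trisomic and 14.37 in euploid spermatids, and 2.77 in trisomic and 4.36 in euploid liver. Hspa5 differed by 0.83 (SE 0.19, adjusted p = 0.0232), with changes of -0.40 in trisomic and -1.23 in euploid animals. For Sel1l the difference was 1.18 (SE 0.30, adjusted p = 0.0439), with changes of -2.47 in trisomic and -3.66 in euploid animals. Pdia3 had 0.78 (SE 0.20, adjusted p = 0.0454), with changes of -0.07 in trisomic and -0.85 in euploid animals. Trisomic liver lay below euploid liver for all 4. Groups of 3 arrays were too small to look for arrays that stand apart.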

How the results depend on the processing

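The counts of genes, members and families that changed stayed within 1.5 times of those reported under all alternatives run, with 1 exception: the members lower in spermatids than in mid-late-pachytene spermatocytes numbered 41 and became 65 with arrays centred on their median, an alternative added after the data were seen. Centring moved the calls of all genes in that comparison from 2626 higher and 3106 lower to 2193 higher and 4111 lower, and the median change from -0.14 to -0.45. Between spermatids and liver the median of all genes was 0.19 as deposited, -0.15 after quantile normalization and -0.07 after centring. Leaving out each array in turn gave 4844 to 4897 genes that rose, 4492 to 4579 that fell, 51 to 54 families with members in both directions and 11 to 13 X-linked members that fell. Over 191 named genes and 14 settings, 2653 of 2670 values kept direction and call, 15 lost the call (all of H1f6 or Slc25a4), 2 gained it (Ube2b, -0.42 after quantile normalization and -0.28 after centring) and none turned round. Same-numbered spermatid and liver arrays had deviations correlated at -0.02, 0 and 0. Such values can arise with or without shared animals, so whether the numbers pair the samples is not settled. With the replicate number as a block on the 6 arrays, 4801 genes rose and 4459 fell, 124 members rose and 80 fell, 43 families moved apart by at least 2, and Slc25a4 lost its call (adjusted p = 0.0931). Mutual best paralogue pairs were not run, since protein sequences were not used here. Probe sets on their own were not run, since each gene had 1.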

Other observations

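Some cell type markers did not follow their list. Epcam, listed for bile duct cells, had 13.05 in spermatids and 5.26 in liver. Clu, listed for Sertoli cells, had 9.32 in spermatids and 15.69 in liver, and Stab2, listed for endothelium, had 7.94 and 9.85. Adgre1, listed for macrophages, had 7.19 in spermatids, while 4 of the 6 macrophage markers lay below 3 there.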
